A study of Mus musculus with 2 samples.

Results

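Islet macrophages are the resident phagocytes of the islet of Langerhans. Here they were 123 of the 12900 cell barcodes of 2 single-cell libraries, 68 in the control library and 55 in the library labelled TBL/RβKO. They were chosen by measured values. A member had more than 1000 detected genes, under 10% of its UMIs (molecular tags that each mark 1 captured transcript) in mitochondrial genes, and a UMI of at least 4 of the 6 genes C1qa, C1qb, Lyz2, Cd68, Csf1r and Ptprc. Its UMIs of Ins1, Ins2, Gcg, Sst and Ppy summed to under 500 per 10000.

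Each library held 150 islets pooled from 4 mice of 5 weeks of age on a C57BL/6N background. TBL/RβKO mice were Tbl1x fl/fl Tbl1xr1 fl/fl and carried Cre at the endogenous Ins1 locus, an allele active in β-cells and not aimed at macrophages. Their Cre-negative littermates, labelled wildtype, gave the control library. The islets spent a night in RPMI with 10% FBS before they were dissociated and loaded on 10x Chromium 3′ chemistry (v3.1), which the macrophages of both libraries share. There were no replicates, with 1 library per group, so no difference was tested between groups. Every interval given is a 95% interval for counting error only.

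Macrophages engulf dying cells and debris, break them down in lysosomes, recycle the lipid and iron they take in, and present peptides on MHC class II molecules to T cells. In the islet they sit along the capillaries beside the β-cells, from which they take up insulin granule content. Colony stimulating factor signals through the receptor that Csf1r encodes and keeps them alive.

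The rule separated the members from the other barcodes with few borderline cases. Among kept control barcodes under the hormone ceiling, 62 had a UMI of all 6 markers, 6 had 5, none had 4 or 3, and 4 had 2. In the library labelled TBL/RβKO 48 had 6 markers, 4 had 5, 3 had 4, 4 had 3 and 20 had 2. Just outside the ceiling, 9 control barcodes and 3 of the other library had 4 or more markers but at least 907 and 945 hormone UMIs per 10000, whereas the highest members reached 471 and 159. The members with the fewest genes had 2272 and 1650 genes, and 1 and 6 further barcodes met the marker and hormone limits but not the limits on genes or mitochondrial UMIs.

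A control macrophage had a median of 20331 UMIs (5090 to 77763) and 4254 genes, and a macrophage of the library labelled TBL/RβKO 18465 UMIs (3193 to 69304) and 4113 genes. The libraries shared 14 barcode sequences, none of them a member. Barcodes with 500 or more insulin UMIs per 10000 had 95.3 CPM (UMIs per 1000000) of Tbl1x in the control and 342 CPM in the library labelled TBL/RβKO, and 19.7 and 124 CPM of Tbl1xr1, against the direction of the label, while Cre was at 0 and 30.9 CPM. A gene's count includes transcripts that lack the floxed exons, and for this reason the second library is named by its label throughout.

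Macrophages made up 1.37% of the kept control barcodes (68 of 4961, exact binomial interval 1.07% to 1.73%) and 1.23% in the library labelled TBL/RβKO (55 of 4462, 0.930% to 1.60%). The difference of -0.138 percentage points (-0.599 to 0.329) was smaller than its counting error. Among kept barcodes under the hormone ceiling they made up 20.7% (68 of 328) and 6.47% (55 of 850). Its denominator held different cells in each library, among them 0 and 135 B cells, 30 and 101 stromal cells and 61 and 46 endothelial cells by rules of the same kind. More cells of a type captured and more cells of it in the islet cannot be told apart in these counts.

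In the macrophages, where the deletion is not aimed, the targeted genes differed by less than their counting error. Tbl1x (chromosome X, 76554141 to 76706597, GRCm39), a subunit of the NCoR and SMRT corepressor complexes, had 118 UMIs in the control members and 84 in the others, which gave 79.8 CPM (66.0 to 95.5) and 79.5 CPM (63.4 to 98.4). The log2 ratio, always TBL/RβKO over control, was -0.01 (-0.43 to 0.41). Tbl1xr1 (chromosome 3, 22129947 to 22270770) had 53.4 CPM (42.3 to 66.6) and 53.0 CPM (40.0 to 68.8). Cre had 0 UMIs in control members, with an exact Poisson upper limit of 2.49 CPM, and 4 UMIs in 3 members of the library labelled TBL/RβKO, or 3.78 CPM (1.03 to 9.69). The stromal cells of that library had 0 and its endothelial cells 1 UMI of Cre. Of the 6 corepressor genes 5 were measured, a term used for genes with a mean of 50 CPM or more in the macrophages over the libraries. None was past 2-fold, with Ncor1 at 191 and 145 CPM and Gps2 at 71.7 and 70.0 CPM. Of all 3029 measured genes 0.396% were 2-fold or more higher and 1.22% lower, the shares to set beside each list's count below.

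Genes of macrophage identity that the rule did not use were also high in the members. All 21 measured genes of a list of 22 stood 2-fold or more above the stromal and the endothelial cells of the same library, in both libraries, against 17.5% of the 3029 measured genes. A gene counts as measured by its level in the macrophages themselves, and the list was made with earlier results of these data known. This count, and those like it below, is therefore no independent support. B cells, which are leukocytes too, exceeded the macrophages of their library for Coro1a (1048 against 586 CPM) and Cybb (338 against 245 CPM), and Pld4 was found in only 41 of 68 and 34 of 55 members. Tyrobp, the signalling adaptor DAP12, had a UMI in all 68 and 55 members at 3220 and 3204 CPM. Fcer1g, the common chain of Fc receptors, stood at 2805 and 3113 CPM and Ctss, the cathepsin that trims the invariant chain, at 2733 and 3098 CPM. Adgre1, which encodes F4/80, was at 205 and 178 CPM, and Trem2, a lipid-sensing receptor, at 758 and 785 CPM. UMIs of this chemistry come from the 3′ end and are not divided by gene length, so values of different genes are set side by side here only as levels of captured UMIs.

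Of the 6 genes that chose the members, C1qa, C1qb and Cd68 had a UMI in every control macrophage. C1qa (chromosome 4, 136623223 to 136626161), a chain of the complement recognition protein C1q, was at 2777 and 3202 CPM, C1qb at 3349 and 3692 CPM, and Cd68, a lysosomal membrane glycoprotein, at 1230 and 1488 CPM. Csf1r was at 305 and 298 CPM and Ptprc, the leukocyte antigen CD45, at 291 and 371 CPM. Lyz2, lysozyme, was at 3973 and 5205 CPM, but 1 member of the library labelled TBL/RβKO held 50.8% of its UMIs there, and without the highest member of each library the log2 ratio changed from 0.39 to -0.53.

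C1qa was, of the 6 markers, the most often found in hormone-rich barcodes. Hormone-rich barcodes, the kept barcodes at or above the hormone ceiling, had a C1qa UMI in 55.0% of 4633 control barcodes and in 35.4% of 3612 barcodes of the other library, at median depths of 41155 and 29578 UMIs, against 1.64% and 0.997% for C1qb. In these barcodes there were 10.7 and 10.3 UMIs of C1qa for each UMI of C1qb, whereas in macrophages there were 0.829 and 0.868. The ratio of C1qc, the other chain, to C1qb was alike in both kinds of barcode, 0.618 and 0.575 in macrophages and 0.605 and 0.545 above the ceiling. A UMI of C1qa alone thus marked hormone-rich barcodes as well. UMIs of both C1qa and C1qb were found in 68 of 68 and 54 of 55 members, and of the 3 members with exactly 4 markers 2 had C1qa among them.

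The markers of other immune cells were at or near 0. Of 8 markers of dendritic cells 4 had no UMI in control members and 5 none in the others, and the list summed to 34.5 and 21.8 CPM. Monocyte markers summed to 5.41 and 18.0 CPM, with Ccr2, the receptor that brings monocytes into tissue, at 3 and 4 UMIs in all. The 7 neutrophil markers summed to 18.3 and 33.1 CPM, the 6 B cell markers to 14.9 and 19.9 CPM and the 8 markers of T and NK cells to 0.676 and 0 CPM. No immune marker of these lists reached 50 CPM in either library. Mast cell markers summed to 23.7 and 1.89 CPM, and all 35 control UMIs were Kit UMIs of 1 member described below. Outside the immune lists, ductal markers summed to 22.3 and 109 CPM, acinar markers to 12.2 and 28.4 CPM, red cell markers to 3.38 and 112 CPM and Schwann cell markers to 0 and 3.78 CPM, with 80.9% of the ductal and 97.5% of the red cell UMIs of the library labelled TBL/RβKO in 1 member each. Stromal markers summed to 251 and 15.1 CPM, endothelial markers to 417 and 38.8 CPM and endocrine markers to 15417 and 6878 CPM, and their part in the results below was not tested.

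**Figure D1:**
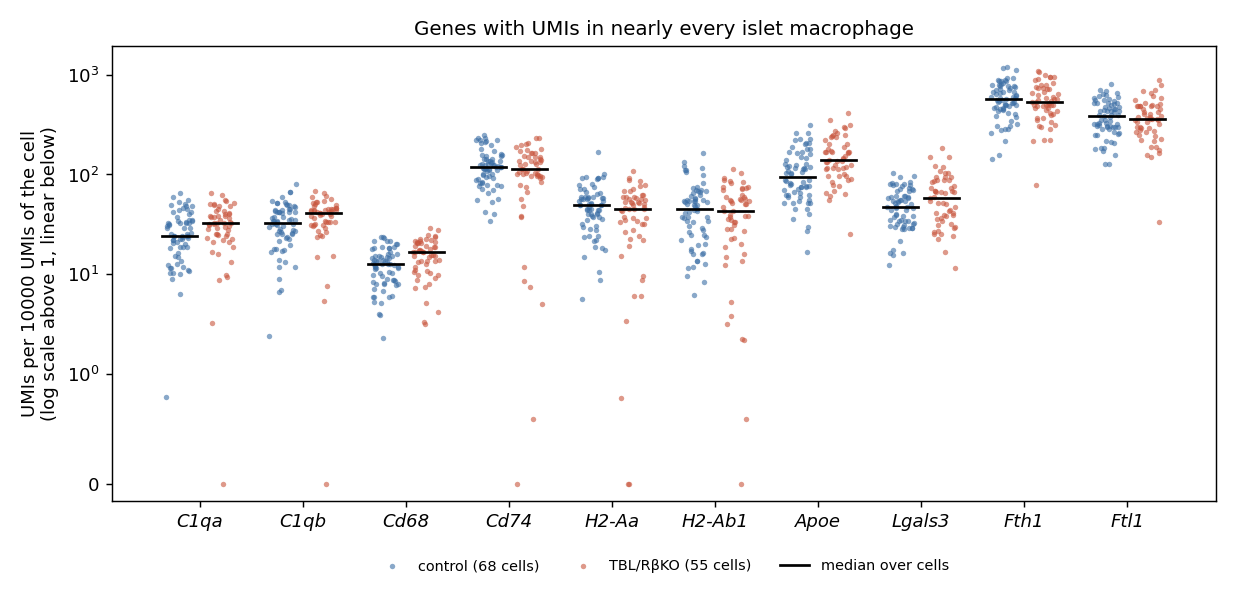
Levels of 10 genes in each islet macrophage, as UMIs per 10000 UMIs of the cell (log scale above 1), in the 68 control members (blue) and the 55 members of the library labelled TBL/RβKO (red), with the median over cells as a bar. Fth1 and Ftl1 lie highest in both libraries, and H2-Aa spans from 0 to 168.

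The macrophages of both libraries carried the class II machinery at high level. Cd74, the invariant chain that escorts class II molecules, was at 12423 CPM in the control and 11532 CPM in the library labelled TBL/RβKO, and H2-Ab1, H2-Aa and H2-Eb1, chains of the class II molecules, were at 5077 and 4533, 5044 and 4378, and 4478 and 3744 CPM. Of the 7 measured genes of 13 in the list none was past 2-fold, where 0.396% of all measured genes were higher and 1.22% lower. The median log2 ratio was -0.16 (median of the genes' intervals, -0.26 to -0.07) against 0.02 over all measured genes. A UMI of H2-Aa was found in 68 of 68 control macrophages and in 53 of 55 of the others, and in 2.57% and 2.82% of hormone-rich barcodes. Ciita, the coactivator that drives class II genes, was low, at 9.46 and 4.73 CPM, against 124 CPM in those B cells. Of the costimulatory genes Cd86 was at 159 and 198 CPM, while Cd80 and Cd40 stayed under 13 CPM in both libraries.

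Within a library the class II genes varied together from cell to cell. H2-Aa ran from 5.59 to 168 UMIs per 10000 with a median of 49.2 in control macrophages, and from 0 to 108 with a median of 45.3 in the others. Spearman's rho between H2-Aa and Cd74 was 0.76 over 68 cells and 0.86 over 55, and between H2-Aa and H2-Ab1 0.88 in each, as a description of cells that share a library and differ in depth. H2-Aa and Igf1 ran against each other, with rho of -0.43 and -0.27.

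The promoters of C1qc, H2-Aa and H2-Eb1 are shown as examples that held a motif searched for, among genes high in the members of both libraries. Other genes of the same lists at a higher level, such as Cd74, H2-Ab1 and Ctss, are not shown. The RefSeq table of promoters (GRCm38.p6, 250 bases before to 50 after each start) held 16 of the 22 identity genes and 8 of the 13 class II genes. The letters GAGGAAGT, a form of the site of PU.1, the transcription factor that Spi1 encodes, were found on either strand in 4 of those 16 (C1qc, Cd53, Ctss and Pld4) and in 3.69% of all 27025 genes of the table. The letters CTGATTGG, the Y box of class II promoters, were found in 3 of 8 (H2-Aa, H2-Eb1 and H2-Oa) and in 4.70% of all genes, though H2-Oa had only 3 and 2 UMIs in the members. GAGGAAGT was in 0 of the 8 class II genes, 1 of 16 lysosomal genes and 0 of the 4 rule markers held there. CTGATTGG was in 0 of the 16 identity genes and 2 of 16 lysosomal genes. These motifs do not overlap in the sequences below, which end before the start and have the motif in capitals, with ACTTCCTC as the reverse complement of GAGGAAGT.
C1qc, chr4:136893056-136893155, minus strand: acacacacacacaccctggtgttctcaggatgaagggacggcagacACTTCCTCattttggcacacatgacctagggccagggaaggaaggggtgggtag
H2-Aa, chr17:34287824-34287920, minus strand: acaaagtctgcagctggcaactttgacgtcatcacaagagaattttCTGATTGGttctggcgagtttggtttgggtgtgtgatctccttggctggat
H2-Eb1, chr17:34305759-34305858, plus strand: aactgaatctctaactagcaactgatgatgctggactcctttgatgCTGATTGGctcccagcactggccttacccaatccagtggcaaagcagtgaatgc
The Y box of H2-Aa begins 51 bases before the start and that of H2-Eb1 62 bases before it. A match of letters is a description and says nothing of binding. TGAGTCA, also searched for, was found in 0 of 16 identity genes, 2 of 16 lysosomal genes and 1 of 8 class II genes, and in 5.95% of all genes. TCACGTGA, a form of the site of the TFEB family, was found at Ctsa and Ctsd among 16 lysosomal genes held there, and in 1.12% of all genes.
Ctsd, chr7:142387873-142387972, minus strand: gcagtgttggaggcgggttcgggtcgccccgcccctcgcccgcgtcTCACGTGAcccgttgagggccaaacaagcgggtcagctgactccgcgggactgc

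Iron storage took a large part of the macrophages' transcripts. Fth1 (chromosome 19, 9957911 to 9962462) and Ftl1 (chromosome 7, 45107367 to 45109308), the heavy and light chains of ferritin, together gave 9.52% of all UMIs in control macrophages and 9.77% in the others. Fth1 was at 56889 and 58158 CPM against 815 and 1260 CPM in hormone-rich barcodes, and 3581 and 4389 CPM in stromal cells. All 7 measured genes of the iron and heme list of 8 stood 2-fold or more above stromal and endothelial cells in both libraries. That share was 17.5% over all measured genes. None was past 2-fold between libraries, where 0.396% of all measured genes were higher and 1.22% lower (median log2 ratio of the list 0.05, -0.01 to 0.10). Hmox1, heme oxygenase, was at 2747 and 2886 CPM, yet ran from 0 to 135 UMIs per 10000 between control cells and from 0 to 133 between the others. Slc40a1, the iron exporter ferroportin, was at 177 and 130 CPM. Tfrc, the transferrin receptor, was at 10.8 and 22.7 CPM and so was the gene of the list that was not measured.

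The lysosomal genes summed to 25009 CPM in the control and 25601 CPM in the library labelled TBL/RβKO. Of 22 genes 20 were measured, and 17 of these stood 2-fold or more above stromal and endothelial cells, against 17.5% of all measured genes. None was past 2-fold between libraries, where 0.396% of all measured genes were higher and 1.22% lower (median log2 ratio 0.10, -0.08 to 0.21). The cathepsin genes Ctsb, Ctsz and Ctsd were at 4830 and 5281, 2747 and 3038, and 2738 and 2511 CPM. Psap, the precursor of the saposins that assist lipid breakdown, was at 4068 and 3311 CPM, and Ctsl at 243 and 382 CPM.

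Among genes of lipid handling Apoe stood out in level. Apoe, the lipid carrier apolipoprotein E, was at 11203 and 15063 CPM. Its log2 ratio was 0.43 (0.40 to 0.46), with cell medians of 94.7 (16.8 to 315) and 140 (25.2 to 413) UMIs per 10000, so the cells overlapped widely. Lgals3, galectin-3, was at 4960 and 6059 CPM and Cd36, a scavenger receptor for oxidised lipid, at 1980 and 1606 CPM. Of 15 genes 13 were measured and 1, Pltp, was 2-fold or more higher, against 0.396% of all measured genes (median log2 ratio of the list 0.43, 0.24 to 0.46). Plin2, which coats lipid droplets, had a log2 ratio of 0.71 (0.59 to 0.84) and Lpl, the lipase that frees fatty acids from lipoproteins, one of -0.72 (-0.85 to -0.59).

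Lpl differed in how many cells had it as well as in level. In control macrophages it ran from 0 to 31.8 UMIs per 10000 with a median of 9.01, and in the others from 0 to 29.7 with a median of 2.20. Thinned to 5000 UMIs per cell, which left out 0 control cells and 1 other, 89.7% (79.9% to 95.8%) and 61.1% (46.9% to 74.1%) had an Lpl UMI, against 95.6% and 83.6% of unthinned cells. Hormone-rich barcodes had a UMI of Lpl in 87.0% and 66.5%, at 158 and 168 CPM, under the 1058 and 643 CPM of the macrophages. Clec7a, the β-glucan receptor dectin-1, had the same direction with 593 and 360 CPM (log2 ratio -0.72, -0.90 to -0.54), and was found in 77.9% (66.2% to 87.1%) and 59.3% (45.0% to 72.4%) of thinned and in 94.1% and 74.5% of unthinned cells, against 0.432% and 0.138% of hormone-rich barcodes. Cx3cr1, the fractalkine receptor, was at 330 and 233 CPM.

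**Figure D2:**
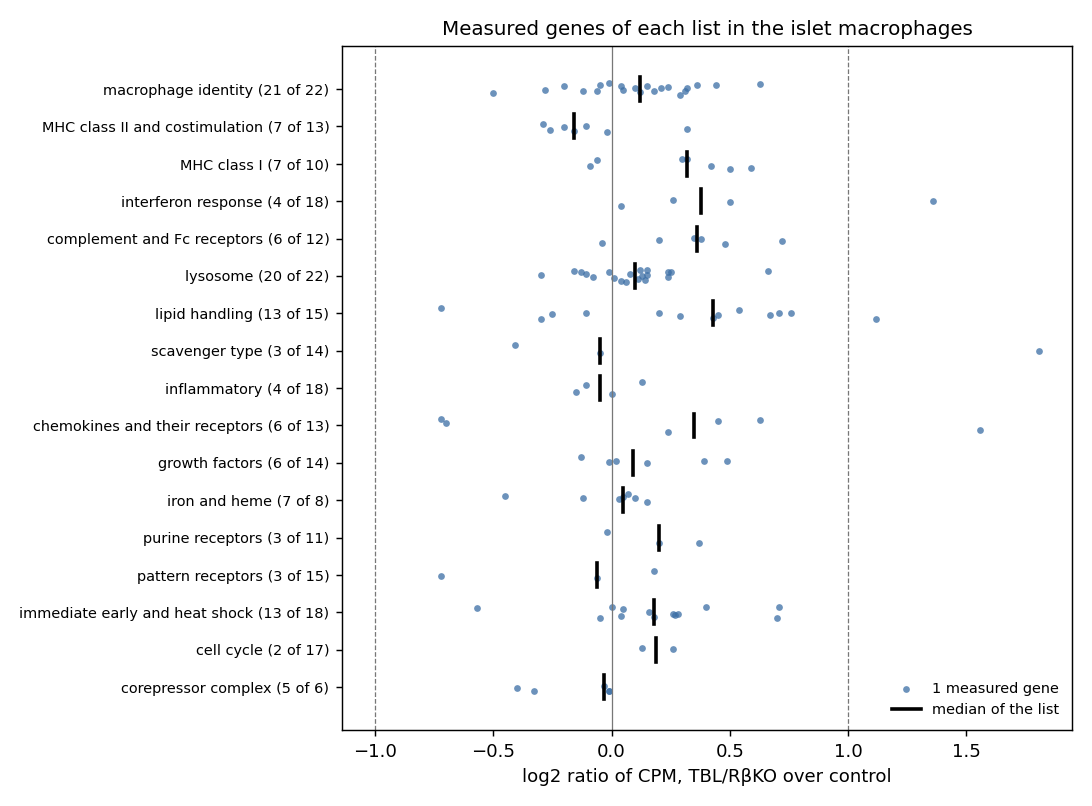
Log2 ratios of CPM, TBL/RβKO over control, of each measured gene in 17 lists, with the list median as a bar, dashed lines at 2-fold, and the number measured of the list's genes beside its name. List medians lie between -0.16 and 0.43, and 4 genes (Isg15, Pltp, Pf4 and Ccl9) pass 2-fold.

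Itgax was found in most members and Mrc1 in fewer. Itgax, which encodes CD11c, had a UMI in 85.3% (74.6% to 92.7%) and 83.6% (71.2% to 92.2%) of members, and in 34 of 68 (37.6% to 62.4%) and 24 of 54 (30.9% to 58.6%) thinned members, against 0.367% and 0.249% of hormone-rich barcodes. Mrc1, the mannose receptor CD206, had one in 19.1% (10.6% to 30.5%) and 40.0% (27.0% to 54.1%), and in 11.8% (5.22% to 21.9%) and 20.4% (10.6% to 33.5%) of thinned members, against 0.863% and 1.91% of hormone-rich barcodes. Its level was 28.4 CPM in the control and 49.2 CPM in the other library, and the intervals of the thinned shares overlap. Cd163, Clec10a and Retnla had no UMI in either library, with exact Poisson upper limits of 2.49 and 3.49 CPM. Lyve1 had 0.676 and 0 CPM, and Stab1, a scavenger receptor, 216 and 209 CPM.

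Of the 14 genes of that scavenger list 3 were measured and 1, Pf4, was 2-fold or more higher, against 0.396% of all measured genes. Pf4, the chemokine CXCL4, was at 222 and 777 CPM, with a log2 ratio of 1.81 (1.62 to 2.00). It was unevenly spread, since 1 control member held 63.4% of the control UMIs and 1 member 31.4% of the others, and leaving both out gave 2.72. A UMI of Pf4 was found in 30 of 68 and 35 of 55 members, with medians of 0 and 0.540 and maxima of 64.6 and 137 UMIs per 10000, and in 0.173% and 0.637% of hormone-rich barcodes. Thinned to equal depth the shares were 23.5% (14.1% to 35.4%) and 38.9% (25.9% to 53.1%), so most cells of both libraries overlap at or near 0.

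Chemokine genes varied widely from cell to cell. Ccl5, which attracts T cells and monocytes and belongs to none of the lists, was at 6574 and 5445 CPM. It ran from 0 to 282 UMIs per 10000 with a median of 52.4 in the control. In the library labelled TBL/RβKO it ran from 0 to 221 with a median of 41.7, and 13 control members and 6 others had none. Its share of cells with a UMI was 80.9% and 89.1%, and 79.4% and 83.3% after thinning, against 4.01% and 2.80% of hormone-rich barcodes, so depth changed it little. Of the 13 other chemokine genes and receptors 6 were measured and 1, Ccl9, was 2-fold or more higher, against 0.396% of all measured genes. Ccl9 was at 37.9 and 112 CPM, with 50.8% of its UMIs in the library labelled TBL/RβKO in 1 member. Its log2 ratio went from 1.56 to 0.73 without the highest members. Ccl3 and Ccl4, chemokines that draw in leukocytes, were at 160 and 98.4 and at 228 and 139 CPM. The ligands of CCR2, Ccl2 and Ccl7, were found in few cells and were under the mean of 50 CPM of a measured gene. Ccl2 had 8 UMIs in 5 control members and 88 in 8 of the others, a log2 ratio of 3.94 (2.90 to 5.20) and 3.36 without the highest members. Ccl7 had 0 UMIs against 47 in 4 members, and Ccl8, a related chemokine, 2 UMIs in 1 member against 29 in 3. Stromal cells also had Ccl2, at 60.7 and 176 CPM, and Ccl7, at 29.8 and 31.5 CPM.

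**Figure D3:**
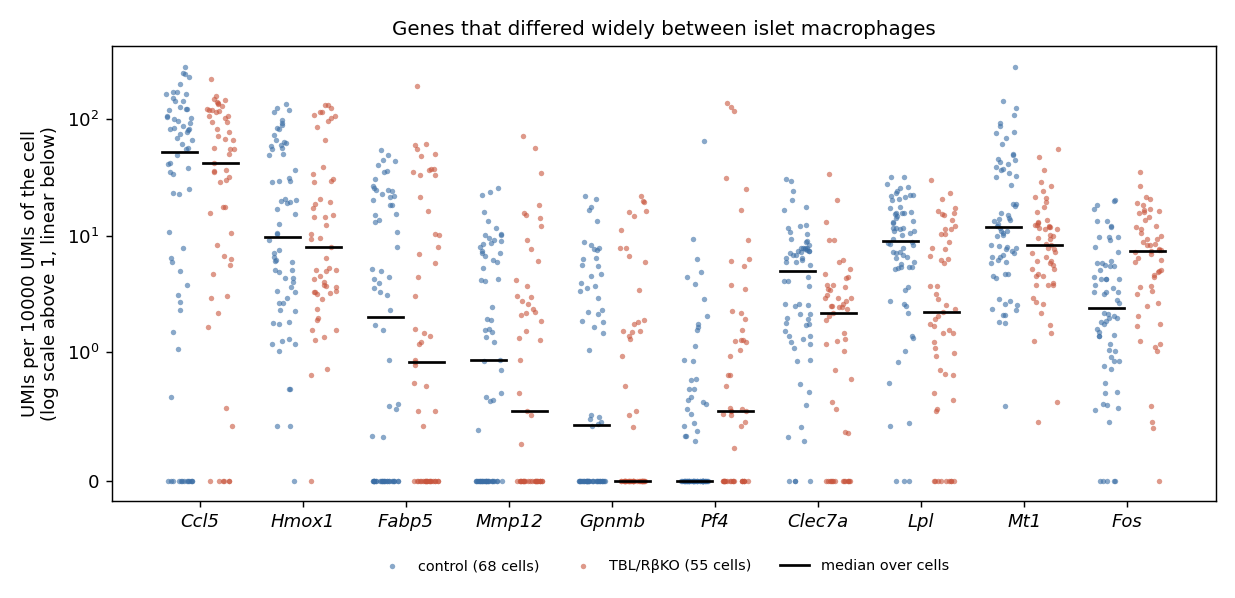
Levels of 10 genes chosen after their values were seen, as UMIs per 10000 UMIs of the cell (log scale above 1), in each member of the control library (blue) and of the library labelled TBL/RβKO (red), with the median over cells as a bar. Each gene ranges from 0, or near 0 for Mt1, to a highest cell of 20.2 (Fos, control) to 282 (Ccl5, control) UMIs per 10000, and the libraries overlap for all 10.

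A further group of cell-to-cell differences lay in Fabp5, Gpnmb and Mmp12. Fabp5, a fatty acid carrier, was at 1105 and 1508 CPM with medians of 2.00 and 0.920 and maxima of 54.2 and 191 UMIs per 10000. Gpnmb, a glycoprotein of lysosome-rich macrophages, had a UMI in 35 of 68 and 25 of 55 members, and in 0.432% and 0.526% of hormone-rich barcodes. Mmp12, macrophage elastase, had one in 41 and 30 members, and in 0.281% and 0.360%. Thinned, Gpnmb was found in 38.2% and 37.0% and Mmp12 in 51.5% and 38.9% of members. Fabp5 went with Lyz2 (rho 0.40 and 0.41) and with Gpnmb (0.35 and 0.28). Fabp5 was also found in other cells, with a UMI in 18.1% and 27.7% of hormone-rich barcodes and in 52.5% and 26.1% of endothelial cells, against 61.8% of the members of each library.

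Most genes of acute inflammation were low. Of 18 such genes 4 were measured and none of these 4 was past 2-fold (median log2 ratio -0.05, -0.51 to 0.36). Among the 4, Sod2 was at 169 and 184 CPM, Nfkbia at 82.5 and 76.6 CPM and Cd83 at 79.8 and 71.9 CPM. Il1b was found in 12 of 68 and 13 of 55 members (37 and 58 UMIs) and in 7.08% and 1.47% of hormone-rich barcodes, and Tnf in 15 of each (17.6 and 21.8 CPM). Thinned, these shares were 5.88% and 11.1% for Il1b and 7.35% and 11.1% for Tnf. Some genes under the mean of 50 CPM were higher in the library labelled TBL/RβKO. The log2 ratio of Il1b was 1.13 (0.51 to 1.77), and 1.26 without the highest members. Il1rn had 1.83 (0.93 to 2.79) from 15 and 38 UMIs, and 1.48 without them. Icam1 had 1.12 (0.22 to 2.06) and 0.75. Cxcl1, Il10, Il1a, Nfkbiz and Tnfaip3 had negative ratios, with intervals that include 0. Il6, Il12b and Nos2 had no UMI in any member, at summed depths of 1479309 and 1057013 UMIs, with the same upper limits as Cd163. Of 18 interferon-response genes 4 were measured, with a median log2 ratio of 0.38 (0.11 to 0.67). Isg15 was past 2-fold at 28.4 and 72.8 CPM, but 1 member held 54.5% of the UMIs in the library labelled TBL/RβKO, and the log2 ratio was 1.36 with and 0.48 without the highest members.

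The remaining lists held 1 gene or none past 2-fold. Class I genes (7 measured of 10) had a median log2 ratio of 0.32 (0.17 to 0.41), with H2-K1 at 992 and 1219 CPM and B2m at 2831 and 2718 CPM, and complement and Fc receptor genes (6 of 12) one of 0.36 (0.12 to 0.60), with Fcgr3 at 237 and 307 CPM. Growth factor genes (6 of 14) had 0.09, purine receptor genes (3 of 11) 0.20, and pattern receptor genes (3 of 15) -0.06. Igf1, a growth factor that acts on β-cells, was at 216 and 215 CPM, Tgfb1 at 226 and 317 CPM, and Entpd1, which breaks down extracellular ATP, at 165 and 163 CPM. The immediate early and heat shock list (13 of 18) had 0.18, with Fos at 484 and 793 CPM and cell medians of 2.38 and 7.32 UMIs per 10000. Dividing cells were rare, with Mki67 UMIs in 2 and 3 members and Top2a UMIs in 2 and 5.

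Genes outside the lists were ranked by the ratio, in the library where it was smaller, of macrophage CPM to the highest CPM of the stromal, endothelial, B cell and hormone-rich barcodes. Lyz1 came first with a ratio of 1072, but all its UMIs lay in 1 member of each library. Mmp12 had a ratio of 1008, Clec4d, a C-type lectin, followed with 983, and Cd300c2, a receptor of myeloid cells, with 899. Cd300c2 had a UMI in every member, at 552 and 556 CPM. Ms4a6d had 728, Ccl5 360, Lair1, an inhibitory collagen receptor, 303, and Itgax 278.

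Between the libraries 12 of 3029 measured genes (0.396%) were 2-fold or more higher and 37 (1.22%) were 2-fold or more lower in the macrophages of the library labelled TBL/RβKO, and 93.1% lay within 1.5-fold. Across measured genes the log10 CPM of the libraries had a Pearson r of 0.944, a correlation over genes that are not independent. All 49 had a counting interval that leaves out 0, as had 735 measured genes in all. At the summed depths of the members any measured gene past 2-fold has such an interval, so it is no support for the 49. Of the 37 lower genes 29 were 2-fold or more higher in hormone-rich barcodes than in macrophages in at least 1 library, as were 6.93% of all measured genes, and 10 were no longer past 2-fold, or had no ratio, without the highest member of each library. That left 6 higher genes and 5 lower ones. A fall in the macrophages of the library labelled TBL/RβKO itself helps a gene meet the hormone-rich limit. The 29 are therefore no independent support for an endocrine source, which was not tested. Trio, for example, was at 96.0 CPM in macrophages and 93.9 CPM in hormone-rich barcodes of the control. In the other library it was at 44.5 and 139 CPM.

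**Figure D4:**
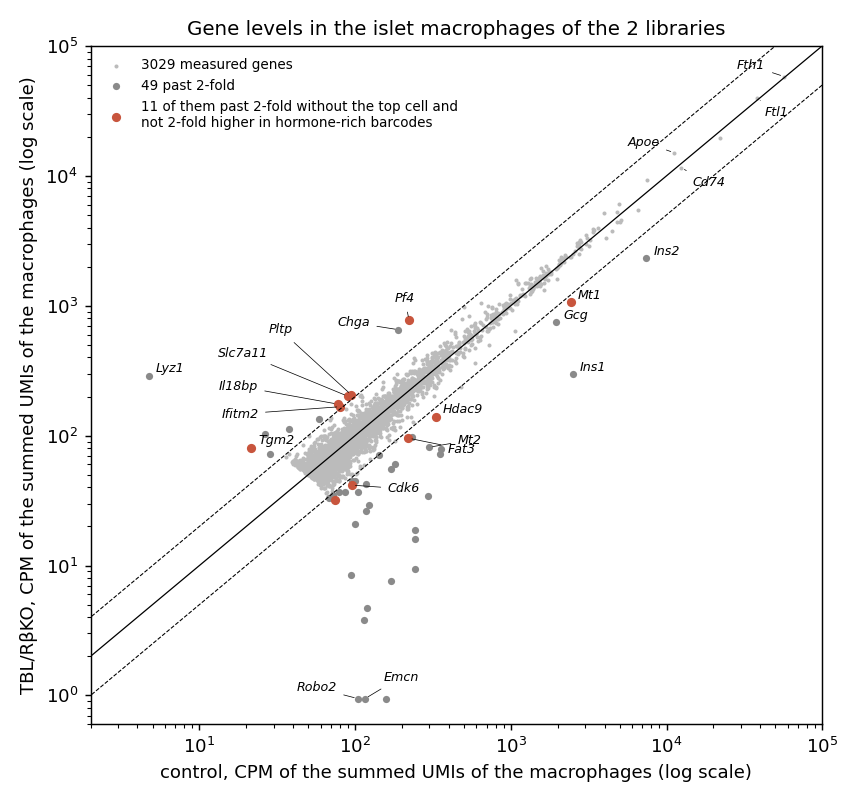
CPM of the 3029 measured genes in the summed macrophages of the control (x, log scale) and of the library labelled TBL/RβKO (y, log scale), with equality as a solid and 2-fold as dashed lines. Of the 49 genes past 2-fold (dark), 11 (red) stay past it without the highest member and are not 2-fold higher in hormone-rich barcodes of either library.

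The 6 higher genes were Tgm2, Pf4, Il18bp, Slc7a11, Pltp and Ifitm2. Chosen by their ratios, they are described without a test. Tgm2 (chromosome 2, 157958322 to 157988359), the tissue transglutaminase that assists uptake of dead cells, had 32 UMIs in 10 control members and 85 in 26 of the others, a log2 ratio of 1.89 (1.29 to 2.53), with thinned shares of 8.82% (3.31% to 18.2%) and 24.1% (13.5% to 37.6%), which overlap, unthinned shares of 14.7% and 47.3%, and shares of 2.27% and 2.16% in hormone-rich barcodes. Its control level of 21.6 CPM was near that of stromal (22.9 CPM) and endothelial cells (21.5 CPM), and its level of 80.4 CPM in the other macrophages was above theirs (17.6 and 13.1 CPM). Pltp (chromosome 2, 164677702 to 164701743), which moves phospholipid between lipoproteins, had 140 UMIs in 31 members and 218 in 43, a log2 ratio of 1.12 (0.81 to 1.44). It had thinned shares of 26.5% (16.5% to 38.6%) and 55.6% (41.4% to 69.1%). These counting intervals do not overlap, but Pltp was chosen by its ratio in the same cells, so this is no support for a difference between groups. Its unthinned shares were 45.6% and 78.2%, against 0.367% and 0.803% of hormone-rich barcodes and 31.1% and 21.7% of endothelial cells. Pltp was at 94.6 and 206 CPM in macrophages, 51.7 and 75.6 CPM in stromal cells and 26.4 and 29.1 CPM in endothelial cells. Il18bp, the soluble inhibitor of interleukin-18, had a log2 ratio of 1.18 (0.84 to 1.53), but its UMIs were found in 39 of 68 and 30 of 55 members, a share of 57.4% and 54.5%. Slc7a11, the cystine importer, had 1.16 (0.84 to 1.48) and UMIs in 47.1% and 56.4% of members. With the mean of per-cell CPM Il18bp was at 0.96 and Slc7a11 at 0.99, and Pf4 was at 0.88 without members with 2 markers of another cell type, so these lost the 2-fold difference. Ifitm2 was at 1.06 (0.71 to 1.41), and at 0.98 with 5 of 6 markers, 0.98 with a ceiling of 200 and 0.95 with a ceiling of 1000. Ifitm2 was higher in endothelial cells (585 and 720 CPM) than in macrophages (80.4 and 167 CPM).

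Of the 5 lower genes Mt1, Hdac9, Fat3 and Cdk6 are described. Mt1 (chromosome 8, 94905710 to 94906955), a metallothionein that binds zinc, had a UMI in every member and ran from 0.580 to 278 UMIs per 10000 with a median of 11.9 in the control, and from 0.460 to 55.5 with a median of 8.29 in the other library. Its level was 2418 and 1062 CPM, a log2 ratio of -1.19 (-1.28 to -1.09), and the cells overlapped over most of the range. Mt2, its neighbour, was at 299 and 81.4 CPM (-1.88, -2.23 to -1.54), under the 168 CPM of hormone-rich barcodes of the library labelled TBL/RβKO. In the same libraries Mt1 was at 102 and 197 CPM in stromal and 21.5 and 40.7 CPM in endothelial cells, the other direction.

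Hdac9, a histone deacetylase, was at 329 and 139 CPM (log2 ratio -1.24, -1.52 to -0.97), with UMIs in 61 of 68 and 39 of 55 members. Fat3, a large cadherin, was at 220 and 95.6 CPM (-1.21, -1.54 to -0.88) and had no UMI in the stromal or endothelial cells of either library. Cdk6, a kinase of the G1 phase, was at 95.3 and 41.6 CPM (-1.20, -1.72 to -0.70). The last 3 of these genes are long, from 189.5 kb for Cdk6 and 591.1 kb for Fat3 to 869.5 kb for Hdac9 in the annotation.

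Gene length moved with the ratio over all measured genes, a split made after the values were seen. From the shortest to the longest quartile of genes (GENCODE M39) the median log2 ratio in macrophages was 0.10, 0.09, -0.01 and -0.15, and 24 of the 37 lower genes were in the longest quartile, from 69168 bases up. Stromal cells had 0.10, -0.04, -0.13 and -0.24 over the same quartiles, and endothelial cells 0.03, -0.03, -0.03 and -0.03. The part of gene length in the lower genes was not tested.

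Most other genes far from equality were those of endocrine or endothelial cells. Robo2, Slc30a8, Cntnap2 and Ins1 had log2 ratios of -6.78, -4.92, -4.49 and -3.08. In hormone-rich barcodes they were at 501, 703, 484 and 110864 CPM in the control. The other library had 426, 414, 172 and 22944 CPM there, so each fell less in hormone-rich barcodes than in macrophages. The cause was not tested. Esm1, Emcn, Mgp, Col4a1 and Sparc lay at -7.37, -6.93, -4.67, -4.65 and -3.91, with 96.4% or more of their control UMIs in 1 member. That member had 77763 UMIs and 8602 genes, a UMI of all 6 endothelial markers and of 3 stromal markers, and 78 UMIs of C1qa. Without the highest members Mgp had a log2 ratio of 0.97 and Sparc one of 0.37.

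Single members also set most of the largest positive ratios. Lyz1, the lysozyme of Paneth cells, had 7 UMIs in 1 control member and 304 in 1 member of the library labelled TBL/RβKO, which was also the deepest member there with 69304 UMIs and 2793 UMIs of Lyz2. Another member of that library had 514 UMIs of Chga and 955 of Iapp, which gave 74.4% and 66.8% of the library's UMIs of these endocrine genes in macrophages, and 83 of the 109 UMIs of Gstp1. In the control 1 member held 57.9% of the Gcg UMIs.

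Every macrophage had hormone UMIs, at a level that differed between libraries. They ran from 43.2 to 471 per 10000 with a median of 110 in the control, and from 15.9 to 159 with a median of 29.9 in the library labelled TBL/RβKO, as a description of values that the ceiling of 500 bounds. The interquartile ranges, 82.6 to 152 and 23.8 to 40.6, did not overlap. Stromal cells had medians of 62.9 and 16.8 and endothelial cells of 75.5 and 32.8, so the same direction held in cells that share the libraries but not the lineage.

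The difference lay in insulin. Ins2 had medians of 68.8 and 15.8 UMIs per 10000 in macrophages and Ins1 of 23.7 and 2.16, while Gcg had 7.44 and 7.27, Sst 0.700 and 0.713 and Ppy 4.14 and 3.29. There were 0.338 UMIs of Ins1 for each UMI of Ins2 in control macrophages and 0.128 in the others. Hormone-rich barcodes of the same libraries had 0.380 and 0.147, stromal cells 0.359 and 0.131, and endothelial cells 0.342 and 0.158. The ratio in macrophages was thus near that of the other cells of its own library and apart from that of the other library. RNA taken up by a macrophage and free RNA in its droplet cannot be told apart in these counts.

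**Figure D5:**
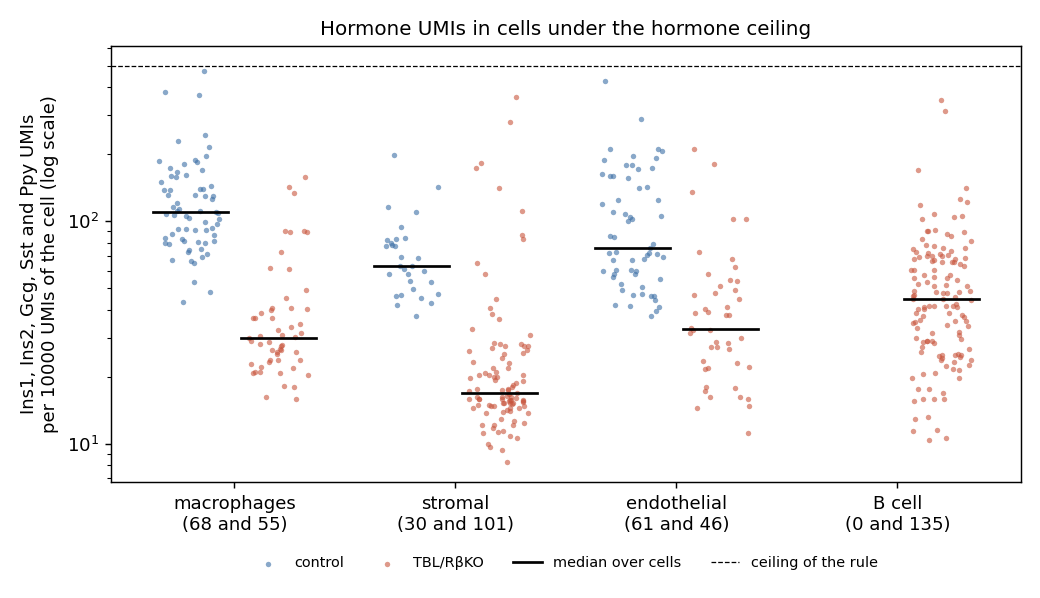
UMIs of Ins1, Ins2, Gcg, Sst and Ppy per 10000 UMIs of the cell (log scale) in macrophages and in 3 other kinds of cell under the hormone ceiling (dashed line), in the control (blue) and the library labelled TBL/RβKO (red), with the median over cells as a bar. Each kind of cell present in both libraries has the lower median in the library labelled TBL/RβKO, and B cells had no control member.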

How the data were processed

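The authors made the deposited matrices of raw UMI counts with Cell Ranger 7.1.0 at standard parameters (builds GRCm39 and mm39, per the submitters' processing notes), which in this version count intronic reads. The deposited barcodes and features files name the cells and the 22383 features, of which 2 are strands of Cre. Values are whole numbers, the lowest barcode total is 500 UMIs, and the authors' removal of free RNA and of doublets came after these matrices. The libraries held 7067 and 5833 barcodes with 241434108 and 185062206 UMIs.

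Members and gene lists were chosen with earlier results of these data known, and the 17 lists hold 246 entries. Comparison cells had 4 or more markers of their own type under the same limits, and 9 control and 4 other barcodes counted as both stromal and endothelial. UMIs were summed over members and given as CPM with exact Poisson intervals, and log2 ratios with exact conditional binomial intervals. Shares have Clopper-Pearson and their differences Newcombe intervals. The calculation was tested on simulated data. Promoter sequences came from RefSeq (GRCm38.p6), and positions and lengths from GENCODE M39 (GRCm39) by Ensembl ID. No test between libraries was possible with 1 library per group. Genes were called past 2-fold at a mean of 50 CPM or more.

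The genes named are the 6 markers, Tbl1x, Tbl1xr1 and Cre, up to 3 of the highest of each list and those past 2-fold, the 10 highest and the 10 lowest log2 ratios, the 10 genes furthest above other cells, and markers of other types over 50 CPM. Others were named after their values were seen, and 1 gene past 2-fold is not reported here. Doublets were kept in the main values. Scrublet (scanpy 1.11.5) marked 84 control barcodes (1.30%) and 1 barcode (0.0187%) of the other library, where it had not worked, so an alternative removed the highest scores, with 4 and 3 members among them. Other software was Python 3.11.15, numpy 2.4.6, scipy 1.17.1, pandas 2.3.3 and matplotlib 3.10.9.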

Additional observations from a re-analysis of the deposited data

How the results depend on the processing

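No paired analysis was possible because each group had 1 library. The difference in the share of macrophages stayed within its interval under all 9 other member rules (-0.237 to -0.0156 percentage points). The 12 higher genes became 125 with a mean of 10 CPM or more, 2 with 200 CPM or more and 655 with no filter. The 37 lower genes became 413, 7 and 1245 under these, 18 with over 2500 and under 6000 genes per cell, 20 without the highest doublet scores, 21 without the highest member for each gene (of 2760 genes then measured), and 8 without genes 2-fold higher in hormone-rich barcodes, the last 2 chosen after seeing the data. Tgm2 and Pltp stayed 2-fold higher, and 17 of the lower genes 2-fold lower, in all 15 alternatives that give every gene a ratio. Of these 17 only Hdac9, Fat3, Cdk6 and Mt1 were not 2-fold higher in hormone-rich barcodes of either library, a limit that a fall in the macrophages helps a gene meet. The others, among them Ins1, Ins2, Pcsk2 and Robo2, were.

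List medians kept within their intervals in 246 of 251 cases. The exceptions were iron and heme (-0.03 with the mean of per-cell CPM), pattern receptors (-0.72 at 200 CPM), cell cycle (0.89 at 10 CPM), and immediate early and heat shock genes (0.50 with over 2500 and under 6000 genes, 0.57 without the highest doublet scores). Thinned shares were lower for Mrc1 in the library labelled TBL/RβKO (20.4%) and for Itgax (50% and 44.4%).

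Directions turned with over 2500 and under 6000 genes per cell for Mgp (1.74), Col4a1 (0.42), Sparc (0.62), Ptprm (0.42), Ttr (0.08) and Gstp1 (-0.21). Without the highest doublet scores they turned for Mgp (1.46), Sparc (0.67), Sst (0.20), Pde4d (0.17), Ptprm (0.21), Ttr (0.10) and Gstp1 (-0.08), without members with 2 markers of another type for Mgp (1.17), Sparc (0.58) and Ptprm (0.32), and with a ceiling of 200 for Sst (0.17), Ttr (0.15) and Nalf1 (0.01). Without the highest member they turned for Mgp (0.97), Sparc (0.37) and Sst (0.06), and with the mean of per-cell CPM for Ptprm (0.06). The cause was not tested.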
